A study of Homo sapiens with 6 samples.

Results

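Messenger RNA of 41 lysosome and autophagy genes was followed across 6 arrays of A2780, an established human ovarian cancer cell line. The 41 genes were listed by symbol, and each was read from the probe sets annotated to that symbol alone. All 41 were measured, among 18418 genes in all. A gene with several probe sets was read from the brightest on average, which applied to 1 of the 41, NEU1. Values are log2 probe set summaries, so a difference of 1 is a doubling, and changes were compared between arrays for the same gene only. A rank among all genes, where given, says only how bright a probe set is.

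All cells were infected with lentivirus and grown in RPMI1640 medium with 10% serum. The virus was washed off by a medium change at 24 hours, and RNA was taken at 96 hours. The BMI1 set held 1 control array (BMI1 ctrl) and 1 array each of BMI1 shRNA1 and BMI1 shRNA2, hairpins against BMI1, a subunit of Polycomb repressive complex 1. The FAL-1 set held 1 control array (FAL-1 ctrl) and 1 array each of FAL-1 shRNA1 and FAL-1 shRNA2, hairpins against the long non-coding RNA FAL-1. The labels describe the control virus only as a control shRNA. A knockdown mean is therefore a mean of 2 hairpins against 1 control array of the same set, and its SD is the spread between the hairpins. The labels do not say that arrays came from separate cultures, so p-values speak only to the spread between these arrays, which may be technical. In a bulk sample, fewer cells that express a gene and less RNA per cell cannot be told apart.

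Lysosomes are acidic compartments in which hydrolases break down protein, lipid, glycan and nucleic acid. A proton pump, the V-ATPase, keeps them acidic, and heavily glycosylated membrane proteins such as LAMP1 and LAMP2 line them. In autophagy a double membrane closes around cytoplasm and fuses with a lysosome, and receptor proteins tie chosen cargo to ATG8-family proteins on that membrane. Many of these genes carry the CLEAR element in their promoters, an E-box-containing sequence bound by TFEB, TFE3 and MITF, which mTORC1 at the lysosome surface holds in the cytoplasm when nutrients are plentiful.

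The E-box is shown first because it is part of the CLEAR element described above. RefSeq promoter windows on GRCh38.p14, from 250 bases before a start site to 50 after it, matched 32 of the 41 genes by symbol. The 8-base core TCACGTGA was found in 5 of the 32 genes (15.6%), beside 1.18% of all 27305 genes with such a window. The 6-base E-box CACGTG, which lies inside every 8-base match, was found in 8 of the 32, beside 8.77% of all genes. Both motifs read the same on either strand. LAMP1, ATP6V0D1, GAA, MCOLN1 and CTSA held the 8-base core, and NEU1, CTSD and CD63 held the 6-base E-box alone. A match describes letters in a window and is no measured binding site. The stretches below come from MCOLN1 (chr19:7522544-7522623, plus strand), GAA (chr17:80101481-80101580, plus strand), CTSA (chr20:45891255-45891334, plus strand), LAMP1 (chr13:113297039-113297228, plus strand), ATP6V0D1 (chr16:67481178-67481257, minus strand), NEU1 (chr6:31862902-31862981, minus strand) and CTSD (chr11:1763928-1764007, minus strand). Each lies upstream of the start site, and capitals mark TCACGTGA where it occurs and CACGTG elsewhere. The LAMP1 stretch ends before a further TCACGTGA of its window, which starts at base -2.
MCOLN1: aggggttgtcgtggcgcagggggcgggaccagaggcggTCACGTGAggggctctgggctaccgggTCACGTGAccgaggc
GAA: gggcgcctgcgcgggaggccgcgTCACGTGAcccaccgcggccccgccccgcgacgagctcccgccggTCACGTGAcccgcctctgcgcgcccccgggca
CTSA: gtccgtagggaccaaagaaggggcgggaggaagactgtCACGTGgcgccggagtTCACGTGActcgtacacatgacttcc
LAMP1: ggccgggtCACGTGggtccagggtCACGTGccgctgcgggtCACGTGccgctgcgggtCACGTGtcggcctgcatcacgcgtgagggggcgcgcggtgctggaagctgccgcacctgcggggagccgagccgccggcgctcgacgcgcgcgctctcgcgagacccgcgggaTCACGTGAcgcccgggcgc
ATP6V0D1: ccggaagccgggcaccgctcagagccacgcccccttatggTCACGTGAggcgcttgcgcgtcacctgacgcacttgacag
NEU1: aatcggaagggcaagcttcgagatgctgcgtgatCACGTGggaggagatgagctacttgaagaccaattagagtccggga
CTSD: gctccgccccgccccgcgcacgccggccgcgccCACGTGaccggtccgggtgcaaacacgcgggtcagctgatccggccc

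The series as a whole sets how firmly these values can be read. Array medians lay between 6.94 and 7.09. The probe set for BMI1, which covers the COMMD3-BMI1 readthrough too, stood at 10.64 in its control, 8.73 with hairpin 1 (26.8% of control) and 9.99 with hairpin 2 (64.0%). No probe set used here carries the symbol of FAL-1, FALEC, and the FAL-1 knockdown was therefore left unchecked. FAL-1 hairpin 2 stood apart: 4.15% of all genes were higher and 7.05% lower by 1.5-fold or more, beside 0.956% and 1.56% with FAL-1 hairpin 1. Of 12 genes listed for epithelial ovarian cancer, KRT8 and VIM lay above the upper quartile of all genes by mean level. CDH1 and MUC16 lay below the lower quartile. The others lay between, from EPCAM (percentile 27.3) to KRT18 (percentile 72.7), with PAX8 at 36.4 and WT1 at 38.3. Of 8 markers of macrophages and leukocytes, cells rich in lysosomes, 3 lay below the lower quartile of all genes (6.21) and 0 above the upper quartile. By gene their means ran from 5.06 (PTPRC) to 6.66 (CD79A). The mean of the 8 lay between 5.97 and 6.08 on every array. Of 7 fibroblast markers, 4 lay above the upper quartile of all genes and 0 below the lower quartile. Their mean was 9.30, 9.01 and 9.37 on the BMI1 control, hairpin 1 and hairpin 2 arrays. On the FAL-1 arrays it was 9.48, 9.66 and 9.56, and its part in the results was not tested.

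With FAL-1 knockdown most of the 41 genes stood above their control, and with BMI1 knockdown fewer than 1 in 2 did so with both hairpins. In the FAL-1 set 29 of 41 genes (70.7%) were above the control with both hairpins, where 37.2% of all genes were, and 3 (7.32%) were below, where 27.7% of all genes were. In the BMI1 set 18 of 41 (43.9%) were above the control with both hairpins, where 32.9% of all genes were, and 4 (9.76%) were below, where 30.7% were. The median change of the 41 genes was 0.26 with FAL-1 knockdown and 0.16 with BMI1 knockdown, beside 0.03 and 0.01 over all genes. The 2 comparisons share no array, and across the 41 genes their mean changes correlated at r = 0.561 (Spearman's rho = 0.480), beside 0.562 and 0.467 across all genes, which are not independent replicates.

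None of the 41 passed the test in either comparison, and neither did any of the 18418 genes (limma with Benjamini-Hochberg adjustment over all genes, 0 called in each direction, or 0%). At an unadjusted p under 0.05 the same fit held 477 of all genes for BMI1, of which 189 (1.03% of all) were higher, and 563 for FAL-1, of which 286 (1.55%) were higher. Of the 41 these were HEXA and CALCOCO1 for BMI1 (4.88%) and CTSB, TFE3, ATP6AP1, GABARAPL1 and CALCOCO1 for FAL-1 (12.2%), each of them higher. The test of the difference between both knockdowns held 148 of all genes at that level (0.804%), 0 called and 0 of the 41. Adjusted p over the 41 genes was 0.9998 to 0.9999 for BMI1 and 0.999 for FAL-1. In the average of both knockdowns 962 of all genes (5.22%) had an unadjusted p under 0.05 and 0 were called. That group included 8 of the 41 genes (19.5%), each higher, where 2.35% of all genes were in that direction. They were HEXA, PSAP, TFE3, ATP6V0D1, ATP6V1H, ATP6AP1, GABARAPL1 and CALCOCO1, and the lowest adjusted p among the 41 was 0.907, a value that CALCOCO1 shared with several others. Size and agreement between hairpins are therefore given below as descriptions.

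The single hairpins differed in how many of the 41 stood far from the control. With FAL-1 hairpin 2, 35 of the 41 (85.4%) lay above the control, where 58.0% of all genes did, and 9 lay at least 1.5-fold above it, where 4.15% did: CTSD, NEU1, PSAP, GRN, MCOLN1, ATP6V0D1, SQSTM1, GABARAPL1 and CALCOCO1. With FAL-1 hairpin 1, 32 (78.0%) lay above the control, where 51.5% of all genes did, and 3 (7.32%) by at least 1.5-fold, where 0.956% did: TPP1, GABARAPL1 and CALCOCO1. With BMI1 hairpin 2, 32 (78.0%) lay above the control, where 54.1% of all genes did, and 7 (17.1%) by at least 1.5-fold, where 1.97% did: CTSD, CTSL, PSAP, GRN, SQSTM1, GABARAPL1 and CALCOCO1. With BMI1 hairpin 1, 23 (56.1%) lay above the control, where 48.1% of all genes did, and 3 (7.32%) by at least 1.5-fold, where 1.75% did: NBR1, GABARAPL1 and CALCOCO1. At least 1.5-fold below the control were NEU1 and WIPI1 with BMI1 hairpin 1 (4.88%, where 3.26% of all genes were) and BECN1 with FAL-1 hairpin 1 (2.44%, where 1.56% were). With hairpin 2 of either target 0 of the 41 were that far below, where 3.85% of all genes were for BMI1 and 7.05% for FAL-1. CTSD, PSAP, GRN and SQSTM1 thus passed 1.5-fold with hairpin 2 of both targets and with hairpin 1 of neither. The share of all genes with that pattern was not counted. For PSAP the BMI1 hairpins lay close together on either side of the cut-off, at log2 changes of 0.54 and 0.66.

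**Figure D1:**
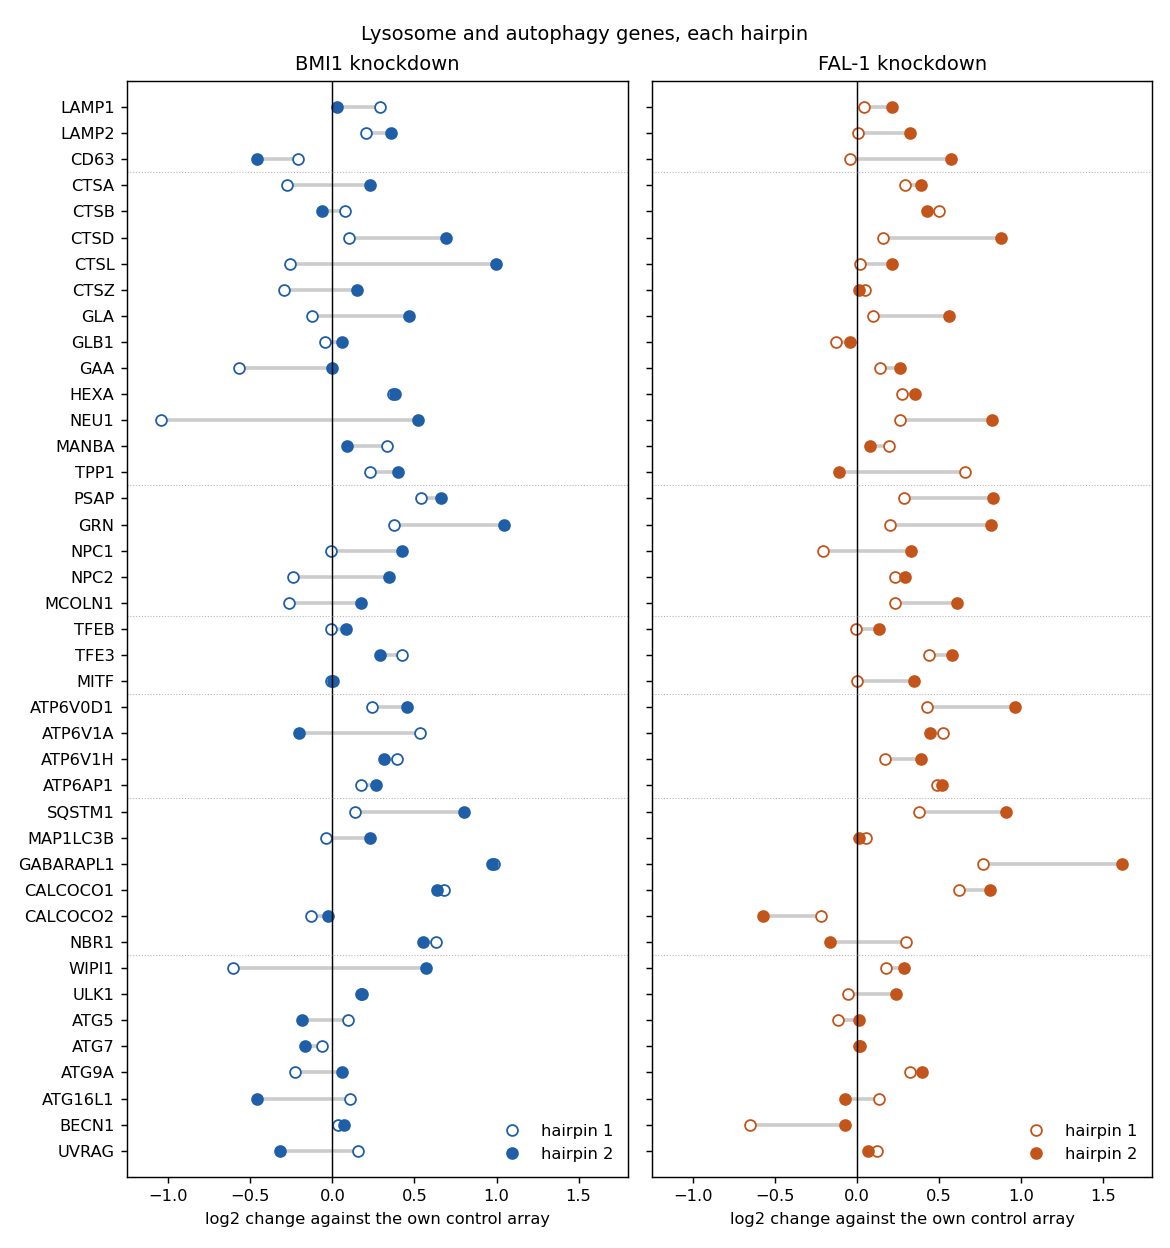
Each row is 1 of the 41 genes, ordered by role with dotted lines between roles, and the horizontal axis is the log2 change of each hairpin against the control array of its own set. Open circles are hairpin 1 and filled circles hairpin 2, in 1 panel per target; most FAL-1 circles lie right of 0, while BMI1 hairpin 1 lies left of 0 for many hydrolases.

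The autophagy receptors and ATG8 proteins held the genes with the clearest differences. GABARAPL1, an ATG8-family protein that joins the autophagosome membrane, and CALCOCO1, a receptor for autophagy of the endoplasmic reticulum, were the only members of the 41 at least 1.5-fold above the control with both hairpins, and they were so for both targets. That is 4.88% of the 41 for each target, where 0.538% of all genes reached it for BMI1 and 0.576% for FAL-1. In the other direction 0 of the 41 were 1.5-fold below with both hairpins, where 0.901% and 0.635% of all genes were. GABARAPL1 read 8.95 in the BMI1 control, 9.93 with hairpin 1 and 9.92 with hairpin 2, and 9.17, 9.93 and 10.78 on the FAL-1 control, hairpin 1 and hairpin 2 arrays. All 4 hairpin arrays lay above both controls, and FAL-1 hairpin 2 was the highest. Its mean change was 0.98 ± 0.01 (SD, n = 2 hairpins; 1.97-fold) for BMI1 and 1.19 ± 0.60 (2.28-fold) for FAL-1, and the limma average of both was 1.09 ± 0.26 (SE). CALCOCO1 read 7.49, 8.17 and 8.13 on the BMI1 arrays and 8.01, 8.63 and 8.82 on the FAL-1 arrays, in the same order. Again the 4 hairpin arrays lay above both controls, though the controls themselves differed by 0.52. Its mean change was 0.66 ± 0.03 (1.58-fold) for BMI1 and 0.72 ± 0.13 (1.64-fold) for FAL-1, with a limma average of 0.69 ± 0.10 (SE).

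The other receptors did not share that pattern. SQSTM1 (p62), the receptor that carries ubiquitinated proteins into autophagosomes, read 9.37, 9.51 and 10.17 on the BMI1 control, hairpin 1 and hairpin 2 arrays and 10.18, 10.56 and 11.09 on the FAL-1 arrays. Every hairpin array lay above its own control, but all FAL-1 arrays, the control included, lay above all BMI1 arrays. The mean changes were 0.47 ± 0.47 and 0.64 ± 0.37. NBR1, a second receptor for ubiquitinated cargo, read 8.77, 9.41 and 9.33 on the BMI1 arrays and 9.54, 9.84 and 9.38 on the FAL-1 arrays. Both BMI1 hairpins lay above the BMI1 control (0.59 ± 0.06, 1.51-fold) and below the FAL-1 control, and the FAL-1 hairpins lay on either side of theirs (0.07 ± 0.33). CALCOCO2 (NDP52), a receptor for damaged mitochondria and bacteria, read 9.11, 8.98 and 9.08 on the BMI1 arrays and 9.69, 9.47 and 9.12 on the FAL-1 arrays. It was the only 1 of the 41 below its own control with all 4 hairpins, where 14.1% of all genes were, and the BMI1 differences were small (-0.08 ± 0.07, beside -0.40 ± 0.25 for FAL-1). MAP1LC3B, the ATG8 protein most used as an autophagosome marker, lay within 0.23 of its control with every hairpin and above it with 3 of the 4.

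**Figure D2:**
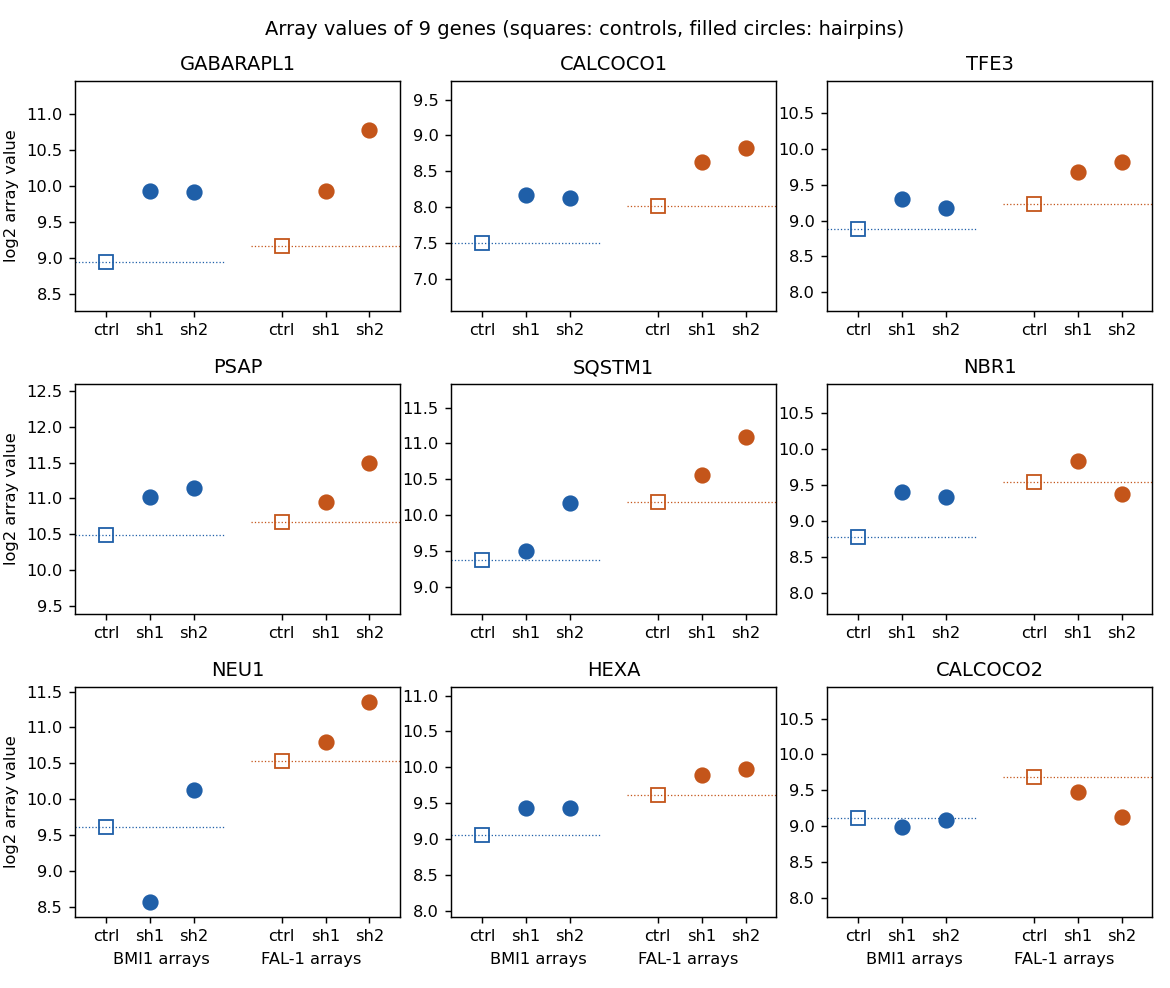
The log2 level of 9 genes is plotted on each of the 6 arrays, with squares for the control arrays and circles for the hairpin arrays, and every panel spans 3.2 log2 units. GABARAPL1 and CALCOCO1 stand above both controls with all 4 hairpins, SQSTM1 and NEU1 stand higher on all FAL-1 arrays than on all BMI1 arrays, and NEU1 differs most between the BMI1 hairpins.

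Of the transcription factors of the CLEAR element, TFE3 was above its control with all 4 hairpins, and TFEB and MITF were not. TFE3 read 8.88, 9.30 and 9.17 on the BMI1 control, hairpin 1 and hairpin 2 arrays and 9.23, 9.67 and 9.81 on the FAL-1 arrays. The BMI1 hairpin arrays lay above their own control and on either side of the FAL-1 control, while the FAL-1 hairpin arrays lay above every other array. Its mean change was 0.36 ± 0.09 (1.28-fold) and 0.51 ± 0.10 (1.42-fold), with a limma average of 0.43 ± 0.10 (SE). TFEB read 6.93, 6.92 and 7.01 on the BMI1 arrays and 7.07, 7.07 and 7.21 on the FAL-1 arrays, a span of less than 0.3 in all. MITF read 6.28, 6.27 and 6.28 on the BMI1 arrays and 6.08, 6.08 and 6.43 on the FAL-1 arrays, so only FAL-1 hairpin 2 stood off from its control. TFEB lay near the array medians and MITF near the lower quartile of all genes, so a low signal limits both, and the arrays show nothing of where these proteins are in the cell.

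All 4 V-ATPase genes stood above the control with both FAL-1 hairpins, and 3 of 4 did so with both BMI1 hairpins, where 37.2% and 32.9% of all genes did. ATP6V0D1, a subunit of the membrane sector whose promoter holds the 8-base core, read 10.61, 10.85 and 11.06 on the BMI1 arrays and 10.72, 11.15 and 11.69 on the FAL-1 arrays. The hairpin arrays lay above both controls, with FAL-1 hairpin 2 highest, and the mean changes were 0.35 ± 0.15 (1.27-fold) and 0.69 ± 0.38 (1.62-fold). ATP6V1H, the regulatory H subunit, read 8.80, 9.19 and 9.11 on the BMI1 arrays and 8.84, 9.01 and 9.23 on the FAL-1 arrays. Here too the hairpin arrays lay above both controls, which were only 0.04 apart. The accessory subunit ATP6AP1 read 10.64, 10.82 and 10.91 on the BMI1 arrays and 10.91, 11.40 and 11.43 on the FAL-1 arrays. Its FAL-1 hairpins agreed closely (0.50 ± 0.02), and its BMI1 hairpins (0.22 ± 0.06) did not exceed the FAL-1 control. ATP6V1A, the catalytic subunit, read 10.21, 10.74 and 10.00 on the BMI1 arrays and 10.20, 10.72 and 10.65 on the FAL-1 arrays. BMI1 hairpin 2 was its lowest array and the other 3 hairpins lay together, about 0.5 above the controls.

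Of the 5 genes for hydrolase activators and for lipid and ion transport, 4 lay above the control with both FAL-1 hairpins, where 37.2% of all genes did, and 2 with both BMI1 hairpins, where 32.9% did. PSAP, the precursor of the saposins that help hydrolases reach sphingolipids, read 10.49, 11.02 and 11.15 on the BMI1 arrays and 10.67, 10.95 and 11.50 on the FAL-1 arrays. The 4 hairpin arrays lay above both controls (0.60 ± 0.09, 1.51-fold, and 0.56 ± 0.39, 1.47-fold). GRN, which encodes progranulin, read 10.16, 10.53 and 11.20 on the BMI1 arrays and 10.63, 10.83 and 11.45 on the FAL-1 arrays. Hairpin 2 was the higher in both sets, and BMI1 hairpin 1 did not exceed the FAL-1 control (mean changes 0.71 ± 0.47 and 0.51 ± 0.44). NPC2, which hands cholesterol to NPC1 for export, read 10.65, 10.42 and 11.00 on the BMI1 arrays and 11.02, 11.25 and 11.31 on the FAL-1 arrays. All FAL-1 arrays lay above all BMI1 arrays, and the BMI1 hairpins lay on either side of their control. The cholesterol exporter NPC1 was above its control with hairpin 2 of both targets (0.42 and 0.33) and at or below it with hairpin 1 (-0.01 and -0.21). MCOLN1, a lysosomal calcium channel with a pair of 8-base cores, was above its control with both FAL-1 hairpins (0.42 ± 0.27) and on either side of it with the BMI1 hairpins (-0.05 ± 0.31).

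Of the membrane proteins, LAMP1 and LAMP2 lay on the same side of their own controls with every hairpin, and CD63 did not. LAMP1, whose promoter stretch holds 5 E-boxes, read 10.83, 11.12 and 10.86 on the BMI1 arrays and 11.33, 11.37 and 11.55 on the FAL-1 arrays. LAMP2 read 9.15, 9.36 and 9.51 on the BMI1 arrays and 9.56, 9.57 and 9.89 on the FAL-1 arrays. Both lay above their own control with every hairpin, by 0.01 to 0.36, and the 3 FAL-1 arrays lay above the 3 BMI1 arrays. CD63, a tetraspanin of lysosomes and endosomal vesicles, read 9.65, 9.44 and 9.19 on the BMI1 arrays and 9.88, 9.84 and 10.46 on the FAL-1 arrays. It was 1 of the 4 genes below the control with both BMI1 hairpins, with the lowest mean BMI1 change of the 41 (-0.34 ± 0.17), and FAL-1 hairpin 2 alone stood well above the rest.

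Among the 12 hydrolases, 10 stood above the control with both FAL-1 hairpins, with a median change of 0.29, and 4 did so with both BMI1 hairpins, with a median of 0.09. Of all genes 37.2% and 32.9% did so, so the BMI1 count lay at the level of all genes. HEXA, the alpha subunit of beta-hexosaminidase A, read 9.06, 9.43 and 9.44 on the BMI1 arrays and 9.62, 9.89 and 9.97 on the FAL-1 arrays. Its hairpins agreed within each set (0.37 ± 0.01 and 0.31 ± 0.06), but the FAL-1 control lay above every BMI1 array. The aspartic protease CTSD read 9.85, 9.95 and 10.54 on the BMI1 arrays and 10.08, 10.24 and 10.96 on the FAL-1 arrays. In both sets hairpin 2 stood well above hairpin 1 (mean changes 0.39 ± 0.42 and 0.52 ± 0.51). MANBA, a beta-mannosidase, read 7.80, 8.13 and 7.88 on the BMI1 arrays and 7.83, 8.03 and 7.91 on the FAL-1 arrays. It lay above both controls with all 4 hairpins, by less than 0.4.

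Other hydrolases split by target or by hairpin. GAA, the glucosidase that degrades glycogen in lysosomes, read 8.02, 7.45 and 8.02 on the BMI1 arrays and 8.29, 8.43 and 8.55 on the FAL-1 arrays. It was below the BMI1 control with both hairpins, though hairpin 2 differed by only -0.0034, and above the FAL-1 control with both. GLB1, a beta-galactosidase, read 10.20, 10.16 and 10.26 on the BMI1 arrays and 10.24, 10.11 and 10.20 on the FAL-1 arrays. It was 1 of the 3 genes below the FAL-1 control with both hairpins, though its 6 values spanned less than 0.2. The cysteine protease CTSB was 0.46 ± 0.05 above the FAL-1 control and 0.01 ± 0.10 from the BMI1 control, the carboxypeptidase CTSA 0.34 ± 0.07 and -0.02 ± 0.36, and the galactosidase GLA 0.33 ± 0.32 and 0.17 ± 0.42. The protease CTSL was 0.12 ± 0.14 above the FAL-1 control and, with BMI1 hairpins at -0.26 and 0.99, 0.37 ± 0.89 from the BMI1 control. The peptidase TPP1 lay above the BMI1 control with both hairpins (0.31 ± 0.12) and on either side of the FAL-1 control (0.27 ± 0.54). CTSZ was 0.03 ± 0.03 above the FAL-1 control and lay at -0.29 and 0.15 with the BMI1 hairpins.

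NEU1, the lysosomal sialidase, differed more between the BMI1 hairpins than any other of the 41. It read 9.61 in the BMI1 control, 8.57 with hairpin 1 and 10.13 with hairpin 2, and 10.54, 10.79 and 11.36 on the FAL-1 control, hairpin 1 and hairpin 2 arrays. Every FAL-1 array lay above every BMI1 array, and BMI1 hairpin 1 was the lowest of the 6. Its mean change was -0.26 ± 1.11 for BMI1 and 0.54 ± 0.40 for FAL-1. The 3 probe sets of NEU1, of which a pair held identical values, gave the same direction for each hairpin.

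A gap between the BMI1 hairpins was seen in most of the hydrolases, and it does not depend on a control array. BMI1 hairpin 2 read above BMI1 hairpin 1 in 10 of the 12 hydrolases, with a median difference of 0.47. In a second list of 28 measured lysosomal hydrolases outside the 41, it did so in 23, with a median of 0.42. Over all genes 56.7% were higher with hairpin 2, and the median difference was 0.03. After NEU1 (1.57), the largest differences among the 12 were in CTSL (1.25), GLA (0.59), CTSD (0.59) and GAA (0.57). In the second list SMPD1, acid sphingomyelinase, led with 1.47, followed by CTSF (0.85), ARSB (0.83), CTSH (0.79) and LIPA (0.77), and ACP2 went furthest the other way (-0.53). The autophagy protein WIPI1, which binds phosphoinositide on the forming membrane, also differed by 1.17. Against the BMI1 control, the median of the 12 was -0.08 with hairpin 1 and 0.31 with hairpin 2. Outside the hydrolases, hairpin 2 was the higher in all 5 of the activator and transport genes (median 0.44) and in 13 of 23 other membrane, transport and sorting genes (median 0.23). It was the higher in 8 of 17 other V-ATPase subunits (median -0.06) and in 16 of 36 other autophagy machinery genes (median -0.04). Over all 41 genes hairpin 2 was the higher by at least 1.5-fold in 7 (17.1%, where 2.98% of all genes were) and the lower by as much in 1, ATP6V1A (2.44%, where 3.25% were). Each hairpin has 1 array, so the gap has no replicate check, and BMI1 itself read lower with hairpin 1 than with hairpin 2. With FAL-1, hairpin 2 exceeded hairpin 1 in 8 of the 12 hydrolases and in 16 of the 28, with medians of 0.09 and 0.07 beside 0.04 over all genes. It did so in 30 of the 41 (73.2%, where 56.8% of all genes did), by at least 1.5-fold in CD63, CTSD, GRN and GABARAPL1 (9.76%, where 3.38% were), and it was lower by as much in TPP1 (2.44%, where 5.77% were).

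**Figure D3:**
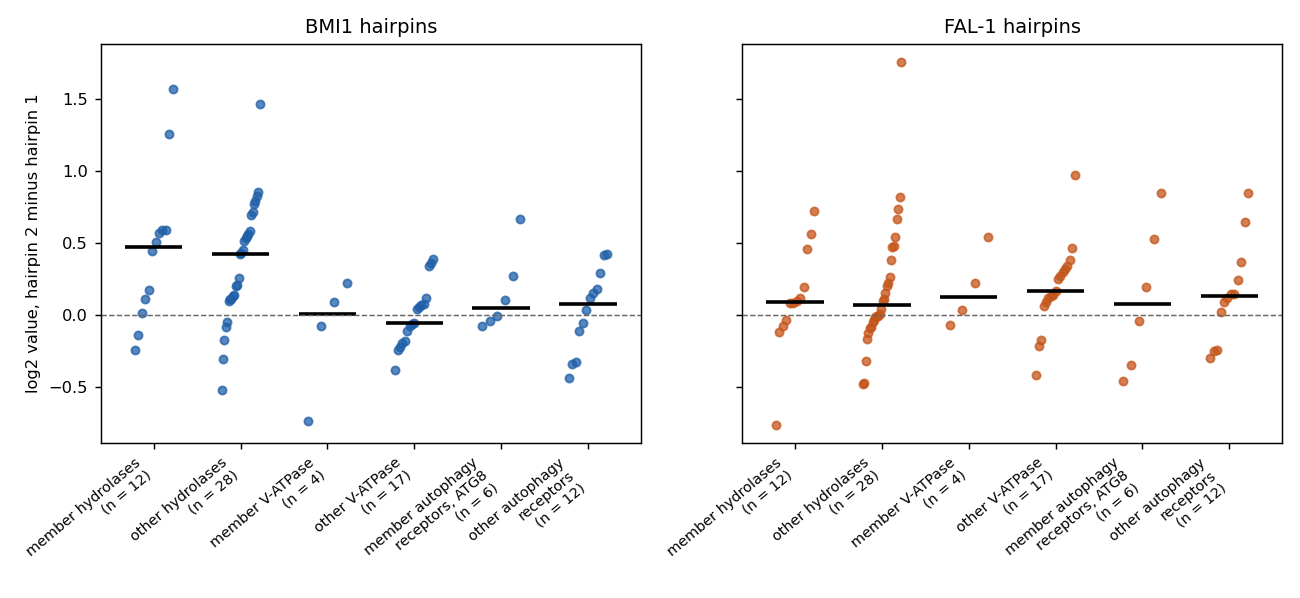
Each point is a gene, placed by its log2 level with hairpin 2 minus that with hairpin 1 of the same target, and bars are medians. For BMI1 both hydrolase groups (12 and 28 genes) lie mostly above 0, with medians of 0.47 and 0.42, while the other V-ATPase subunits (17 genes) centre near 0.

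The 8 genes of autophagosome formation centred near their controls, with medians of -0.06 for BMI1 and 0.06 for FAL-1. BECN1, the scaffold of the lipid kinase complex that starts autophagosomes, read 9.21, 9.25 and 9.28 on the BMI1 arrays and 9.48, 8.84 and 9.41 on the FAL-1 arrays. FAL-1 hairpin 1 was the lowest array by far, and the BMI1 hairpins differed from their control by less than 0.1. ATG7, the activating enzyme of ATG8 conjugation, read 8.68, 8.61 and 8.51 on the BMI1 arrays and 8.57, 8.60 and 8.59 on the FAL-1 arrays, below the control with both BMI1 hairpins and within 0.03 of it with both FAL-1 hairpins. The starter kinase ULK1 was 0.18 ± 0.01 above the BMI1 control and 0.09 ± 0.21 from the FAL-1 control. ATG9A, a lipid scramblase of the vesicles that seed autophagosomes, was 0.36 ± 0.05 above the FAL-1 control and -0.08 from the BMI1 control. WIPI1 was 0.23 ± 0.08 above the FAL-1 control. For BMI1, the WIPI1 hairpins lay at -0.60 and 0.57. ATG5 and ATG16L1, partners in ATG8 conjugation, and UVRAG, a partner of BECN1, had mean changes between -0.18 and 0.09 for either target.

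The control arrays themselves differed in these genes. The FAL-1 control read above the BMI1 control in 34 of the 41 (82.9%), where 55.1% of all genes did, with a median gap of 0.26 beside 0.02. It was at least 1.5-fold higher for NEU1 (0.93), SQSTM1 (0.81) and NBR1 (0.77), which is 7.32% of the 41 where 1.65% of all genes reached it, and it was lower by that much for 0 of the 41. In 14 of the 41 (34.1%) all 3 FAL-1 arrays lay above all 3 BMI1 arrays, where 12.4% of all genes did, and in 0 of the 41 they lay below, where 6.35% of all genes did. They were LAMP1, LAMP2, CD63, CTSA, GAA, HEXA, NEU1, NPC2, MCOLN1, TFEB, ATP6AP1, SQSTM1, MAP1LC3B and CALCOCO2. With 1 control per set, the set an array belongs to and its target cannot be told apart.

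That gap bears on both comparisons. Set against the FAL-1 control, the BMI1 hairpins were both above it in 8 of the 41 (19.5%, where 31.8% of all genes were) and both below it in 19 (46.3%, where 37.7% were), and the median turned from 0.16 to -0.05. The FAL-1 hairpins set against the BMI1 control were both above it in 34 (82.9%, where 41.8% were), with the median at 0.52 in place of 0.26, and both below it in 4 (9.76%, where 28.1% were). Counted against both controls at once, the FAL-1 hairpins were both above in 27 (65.9%, where 26.6% of all genes were) and both below in 1, GLB1 (2.44%, where 17.2% were). The BMI1 hairpins were both above in 6 (14.6%, where 19.7% were) and both below in 3 (7.32%, where 21.8% were). LAMP1, HEXA, NPC2, SQSTM1 and NBR1 were among the genes whose mean BMI1 change turned from above to below with the other control. The mean BMI1 change of GABARAPL1 was 0.76 with the other control in place of 0.98, and that of CALCOCO1 0.14 in place of 0.66. With FAL-1, CALCOCO2 turned from -0.40 to 0.18. All 4 hairpins lay above their own control in 14 of the 41 (34.1%, where 17.0% of all genes did), and above both controls in 6 (14.6%, where 9.02% did). Those 6 were MANBA, PSAP, ATP6V0D1, ATP6V1H, GABARAPL1 and CALCOCO1.

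**Figure D4:**
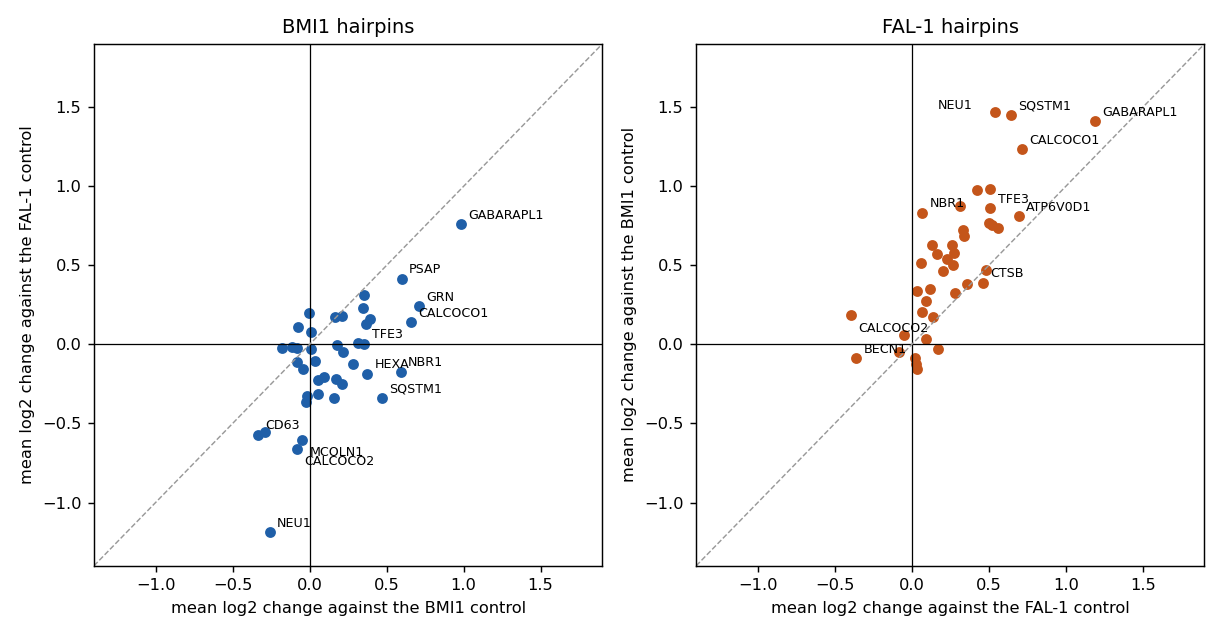
Each point is 1 of the 41 genes, with the mean log2 change of both hairpins against the control of their own set on the horizontal axis and against the control of the other set on the vertical axis, and the dashed line marks equal values. Most BMI1 points lie below the line and most FAL-1 points above it, the shift set by the 0.26 median gap between the controls.

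Genes of the same pathway outside the 41, taken as 1 list, gave smaller medians than the 41. Of 154 such names, 141 were measured, and 0 passed limma's test in either direction. At an unadjusted p under 0.05, 5 were higher with BMI1 knockdown, where 1.03% of all genes were. With BMI1 knockdown 1 was lower, where 288 of all 18418 genes were. With FAL-1 knockdown 11 were higher, where 1.55% of all genes were, and 1 was lower, where 277 of all 18418 genes were. With FAL-1 knockdown 83 of 141 were above the control with both hairpins and 21 below, where 37.2% and 27.7% of all genes were, with a median of 0.14. With BMI1 knockdown 53 were above and 32 below, where 32.9% and 30.7% of all genes were, with a median of 0.06. By group, FAL-1 knockdown had 15 of 28 other hydrolases, 16 of 23 other membrane, transport and sorting genes, 10 of 17 other V-ATPase subunits and 22 of 36 other autophagy machinery genes above the control with both hairpins. BMI1 knockdown had 9, 6, 5 and 20 in the same order. Other selective autophagy receptors counted 7 of 12 for FAL-1 and 5 of 12 for BMI1, and genes of nutrient sensing at the lysosome 13 of 25 and 8 of 25. Beside 32.9% of all genes, the BMI1 counts of the hydrolases, the V-ATPase subunits, the membrane group and nutrient sensing lay near or below that share. That of the autophagy machinery lay above it. The receptors, with 5 of 12 above and 4 of 12 below, lay near the 32.9% and 30.7% of all genes. The other autophagy machinery had medians of 0.12 for BMI1 and 0.21 for FAL-1, above the -0.06 and 0.06 of autophagosome formation in the 41. The other hydrolases and V-ATPase subunits had lower medians than those in the 41 for both targets.

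Ranked on whichever hairpin differed less, the highest of these were SESN1, SESN2, ATP6V1D and PLA2G15 for BMI1 and SMPD1, PLA2G15, ATG101 and TFEC for FAL-1. SESN1, a stress-induced sestrin that restrains mTORC1, read 9.52, 10.38 and 10.27 on the BMI1 arrays and 9.56, 10.10 and 10.62 on the FAL-1 arrays. PLA2G15, a lysosomal phospholipase, read 7.98, 8.54 and 8.49 on the BMI1 arrays and 8.04, 8.87 and 8.97 on the FAL-1 arrays. In both genes the controls were within 0.1 of each other and all 4 hairpins lay above them. SESN2, a related sestrin, read 8.62, 9.54 and 9.72 on the BMI1 arrays and 10.06, 9.77 and 10.10 on the FAL-1 arrays. Its BMI1 hairpins were 1.01 ± 0.13 above their own control and below the FAL-1 control. ATP6V1D, a V-ATPase subunit, read 8.15, 8.83 and 8.76 on the BMI1 arrays and 8.80, 9.24 and 9.71 on the FAL-1 arrays, so its BMI1 hairpins also stood level with the FAL-1 control. SMPD1 read 6.89, 6.65 and 8.11 on the BMI1 arrays and 7.35, 8.55 and 9.09 on the FAL-1 arrays, with BMI1 hairpin 1 lowest and the FAL-1 hairpins highest. ATG101, of the ULK1 kinase complex, had a mean FAL-1 change of 0.69, or 0.44 against the BMI1 control. Its mean BMI1 change was 0.30 against the BMI1 control. TFEC, a relative of TFEB, read 6.46, 7.37 and 6.39 on the BMI1 arrays and 6.02, 6.67 and 6.68 on the FAL-1 arrays. It was 0.66 ± 0.01 above the FAL-1 control, which lay below the lower quartile of all genes (6.21), so a low signal limits it. Against the BMI1 control its FAL-1 change was 0.22, and its BMI1 hairpins lay on either side of that control.

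The lowest by the same ranking came from several of the same groups. For BMI1 they were NPRL2, a subunit of a complex that restrains mTORC1 (8.58 in the control, 7.89 and 8.26 with the hairpins), BNIP3, a mitophagy receptor (11.65, then 11.21 and 11.10), the transporter SLC15A4 (10.23, then 9.86 and 9.84) and the V-ATPase subunit ATP6V0A2 (9.07, then 8.74 and 8.68). For FAL-1 they were the cysteine protease CTSH (7.12, then 6.71 and 6.66), the kinase ULK2 (8.68, then 8.16 and 8.31), the ATG8 protease ATG4C (9.10, then 8.81 and 8.33) and the V-ATPase subunit ATP6V0E2 (9.06, then 8.79 and 8.90). The ranking took only genes below their own control with both hairpins, so that side was set in advance. Their mean changes ran from -0.53 to -0.21. Against the control of the other set they ran from -0.65 (ATP6V0A2) to -0.02 (ATP6V0E2).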

How the data were processed

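Total RNA was amplified, labelled with biotin and hybridised to Affymetrix arrays, per the labels' protocols. The deposited table holds log2 values of 33252 probe sets on 6 arrays (the scale is judged from their range), made with RMA (background correction, normalization and probe summary) per the submitters' processing notes. The sources used here do not give its version, the array's build or whether the arrays were normalized as 1 batch. Of the probe sets, 19460 had 1 gene symbol in a platform annotation and were used, 1754 had several and 12038 were not listed. A gene took its brightest probe set, which left 18418 genes. BMI1 was read from a probe set with a second symbol.

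All 6 arrays entered 1 fit with 4 group means and 2 residual degrees of freedom in limma 3.58.1 (R 4.3.3), two-sided, with Benjamini-Hochberg adjustment over all genes at 0.05. The script was tested on simulated data. A control with 1 array takes its variance from the hairpin pairs, and precision is limited by having 6 arrays. The contrasts set each knockdown against the control of its set, then took the average and the difference of those 2. Counts of genes above or below a control are descriptions, with the share of all genes as their background. The genes, lists and tests were chosen with earlier results of these data known, so patterns already seen there are not independent support.

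All 6 array values are given for 26 of the 41 genes. They are, per target, up to 5 above and up to 5 below the control with both hairpins by the smaller hairpin change, the genes on 1 side with all 4 hairpins, the 4 with the largest gap between controls, those whose change turned with the other control, those opposite between targets, and TFEB, TFE3 and MITF. Of other pathway genes, up to 4 per direction and target are named; those named for the gap between hairpins, and those of the p53-linked list, were chosen after their values were seen. Alternatives tried were the hairpin number as a block, quantile normalization, the control of the other target, both controls pooled, leaving out each hairpin, a trend in the variance, averaged probe sets and a filter on dim genes. Promoter windows are RefSeq's, and 9 of the 41 genes had none in that table (CTSB, CALCOCO1, ATP6V1A, MANBA, ATP6V1H, HEXA, LAMP2, PSAP and UVRAG). Figures were drawn with matplotlib 3.10.9.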

Additional observations from a re-analysis of the deposited data

Results flagged for a closer look

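In 3 of the 41 genes both hairpins of one target lay on one side of their control and both hairpins of the other target on the opposite side. GAA had a mean log2 change of -0.29 with BMI1 knockdown and 0.20 with FAL-1 knockdown. ATG7 had -0.12 and 0.018, and BECN1 had 0.052 and -0.36. None of the 3 differences between targets passed limma's test of the difference itself (-0.49 for GAA, -0.13 for ATG7 and 0.41 for BECN1; adjusted p = 0.9999 for each). BMI1 hairpin 2 in GAA and both FAL-1 hairpins in ATG7 lay within 0.03 of their control, so these sides rest on differences close to 0. Of all genes, 4.41% were above with both BMI1 hairpins and below with both FAL-1 hairpins, as BECN1 was, and 6.43% were the other way round, as GAA and ATG7 were.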

How the results depend on the processing

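No gene passed limma's test in any of the 4 contrasts under any alternative run. The labels tell the hairpins of a target apart by number only. Across all genes, the difference of hairpin 2 from hairpin 1 in BMI1 correlated with that in FAL-1 at 0.275. With the hairpin number as a replicate block 0 genes were called for BMI1, FAL-1, their difference or their average. Unadjusted p under 0.05 then held for 782 genes for BMI1 and 1064 for FAL-1, in place of 477 and 563. Counts and medians of the 41 genes depended on the control. With pooled controls the BMI1 median went from 0.16 to 0.020 and the FAL-1 median from 0.26 to 0.38. With the other target's control they were -0.051 and 0.52, and the BMI1 counts went from 18 to 8 above and from 4 to 19 below. Against both control arrays at once, an alternative added after the data were seen, 6 genes were above for BMI1 and 1 below for FAL-1, in place of 18 and 3. Leaving out each hairpin in turn gave 23 to 32 above and 9 to 18 below for BMI1, with medians of 0.09 to 0.23, and 32 to 35 above and 6 to 9 below for FAL-1, with medians of 0.17 to 0.33. For both targets the higher count above came without hairpin 1 and the higher count below without hairpin 2. These counts grow by construction, since 1 hairpin has to lie on a side in place of 2. Quantile normalization, the filter on dim genes and the mean of probe sets moved none of these counts by over 1.5 times and kept the sign of each median. Signal over background limits MITF most, whose level lies near the lower quartile of all genes.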

Other observations

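Autophagy genes reported as targets of the tumour suppressor p53 were listed separately. Of 11 genes, 6 lay above the control with both hairpins and 2 below, for BMI1 and again for FAL-1, where 32.9% and 37.2% of all genes were above and 30.7% and 27.7% below, with median changes of 0.18 and 0.09, and none passed limma's test. DRAM1, a lysosomal membrane protein induced by p53, was above its control by 1.09 and 0.45 with the BMI1 hairpins and by 0.43 and 0.63 with the FAL-1 hairpins. ATG4A, a protease that processes ATG8 proteins, was above by 0.46 and 0.49 and by 0.70 and 0.60, but its mean BMI1 change was -0.07 against the FAL-1 control. ATG10, an enzyme of ATG12 conjugation, was below with both BMI1 hairpins (-0.17 and -0.18), above with FAL-1 hairpin 1 (0.27) and far below with FAL-1 hairpin 2 (-1.57). VMP1, a scramblase needed for autophagosome formation, was above with all 4 hairpins, by 0.18 to 0.39, but its mean FAL-1 change was -0.040 against the BMI1 control. ULK1, ATG7 and UVRAG, which belong to both lists, are described with the 41 genes.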
